A study of Mus musculus with 7 samples.

Results

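The subcortical maternal complex is a protein assembly stored beneath the membrane of the mouse egg. The 6 genes described here encode its core members, namely Nlrp5, Ooep, Tle6, Padi6, Khdc3 and Zbed3, and they were chosen by name among the 18951 gene symbols of the deposited table. Each of the 6 had a row, and each passed the filter on low values, a mean normalized count of at least 10 over all pools. Ovulated oocytes lacking Nlrp2 were compared with wild-type (WT) oocytes, in 4 Nlrp2-null and 3 WT pools. All pools came from C57BL/6 females aged 4 weeks. Each pool joined about 150 oocytes of 3 to 4 mice of a single genotype, taken from the ampulla of the oviduct and freed of cumulus cells with hyaluronidase. The part of the gene removed in the null allele is not stated in the labels, and values for single animals are hidden by the pooling.

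Proteins of the complex are made during oocyte growth, bind one another and are needed after fertilization, when the early embryo still lives on maternal supplies. Their loss in the mother is known in mice for embryos that stop dividing or divide unevenly. PADI6 and the complex are also known as parts of the cytoplasmic lattices, fibres that hold stored proteins in the egg. NLRP2 is a relative of NLRP5 and is reported to associate with the complex in mouse oocytes. The ovulated oocyte hardly transcribes its genes, so the values below are those of stored messenger RNA. The comparison asks whether the messages of the core members differ when Nlrp2 is lost.

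The normalized count used here is the number of reads of a gene divided by a size factor of the pool. Reads recovered from it totalled 71795562 to 79476532 in Nlrp2-null pools and 71073973 to 96330083 in WT pools. Nlrp2 itself had 107, 8.19, 1.96 and 63.8 normalized counts in Nlrp2-null pools 1 to 4, against 15527, 20130 and 16792 in WT pools 1 to 3. Of 12 oocyte markers 11 had a row and summed to between 897052 and 1005109 normalized counts in Nlrp2-null pools and to between 831279 and 912407 in WT pools. Cumulus and granulosa markers, 21 of 22 of them tested, summed to between 37905 and 63411 in Nlrp2-null pools and to between 28016 and 53994 in WT pools, with positive fold changes in 17 of the 21 and none called by limma. Oviduct epithelium markers, 5 of 7 tested, summed to 425 to 2255 in Nlrp2-null pools and 383 to 539 in WT pools. At an unadjusted limma p under 0.05, 3 of the 21 and 2 of the 5 were higher in Nlrp2-null pools and 0 lower. Of all 15071 tested genes 795 were higher at that p, and 7648 had positive fold changes. Inhbb, a granulosa marker, had 217, 63.5, 234 and 847 normalized counts in Nlrp2-null pools, against 35.8, 14.3 and 8.23 in WT pools. It had the highest fold of the 21 and was picked after its values were seen. Negative fold changes were found in 4 of the 21, among them Cyp19a1 (fold 0.941) and Fshr (fold 0.947). Levels differed widely within the lists. Hsd3b1 had 5292 to 20602 over the 7 pools, while Amh, a defining granulosa marker, was at 5 or less in every pool. Foxj1, a marker of ciliated oviduct cells, was at 0 in all pools but WT 2. In such bulk samples fewer cells of a type and less RNA per cell cannot be told apart.

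The core genes lie on 5 chromosomes. In GRCm38 coordinates of GENCODE M21, Nlrp5 (ENSMUSG00000015721) lies on chromosome 7 from 23385889 to 23441922 on the plus strand, on the same chromosome as Nlrp2. Ooep (ENSMUSG00000032346) lies on chromosome 9 from 78376109 to 78378725 on the minus strand. Khdc3 (ENSMUSG00000092622) lies on that chromosome too, from 73101836 to 73104438 on the plus strand. Tle6 (ENSMUSG00000034758) lies on chromosome 10 from 81590904 to 81601073 on the minus strand. Padi6 (ENSMUSG00000040935) lies on chromosome 4 from 140727355 to 140742643 on the minus strand, and Zbed3 (ENSMUSG00000041995) on chromosome 13 from 95323612 to 95337841 on the plus strand.

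Upstream sequence was examined because the core genes are expressed together in the growing oocyte, where basic helix-loop-helix factors such as FIGLA act through E-boxes (CANNTG, which reads the same on both strands). RefSeq (GRCm38.p6) gives 10 start sites for the 6 genes, and each of the 10 windows from 250 bases before to 50 after the start held an E-box, as did 72.3% of 32817 such windows of all genes. In Ooep, Padi6 and Khdc3 the first base of an E-box stood 78 bases before the start, a position noticed on inspection. An E-box at that position was found in 0.485% of all windows. That share holds for a position fixed beforehand, while this one was picked from the same windows, so how rare the shared position is cannot be read from it. The 30 bases around it follow, 5′ to 3′ along the gene, with the E-box in capitals. They lie at chr9:78378649-78378678 (minus strand), chr4:140742704-140742733 (minus strand) and chr9:73102308-73102337 (plus strand).
Ooep: acccagcctaccCACTTGcgcggtgcgcgc
Padi6: ctcctccaggctCACCTGtgaacccttaac
Khdc3: tctcccccacccCAGGTGcagccagtgagg
The Padi6 and Khdc3 E-boxes at this position are the same letters read on opposite strands. The RefSeq start of Ooep lies 137 bases, and that of Khdc3 562 bases, from the start of the GENCODE gene, while that of Padi6 coincides with it, so the shared position depends on the start chosen. In the GENCODE models the Ooep bases fall in the 5′ UTR of the first exon, those of Khdc3 in an intron and those of Padi6 upstream of the gene. The NOBOX element (TAATTG, searched on both strands) was present in 2 of the 10 windows, those of Ooep and Padi6, against 8.0% of all windows. The letters TATAAA, 1 form of the TATA box, were searched on both strands. They were present in 2 of the 10, at further start sites of Nlrp5 and Zbed3, against 13.6% of all windows. Each of these matches reads on the strand opposite to the gene. Other forms of the box were not searched, and the window at the Zbed3 start nearest the GENCODE gene start holds TATATAAG, which the search did not count. These matches describe letters only.

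No core gene passed the test between Nlrp2-null and WT pools. The 95% intervals of the fold, Nlrp2-null over WT, ran from 0.799 at the lowest (Padi6) to 1.21 at the highest (Nlrp5) over Nlrp5, Ooep, Padi6 and Zbed3, were lower for Tle6 and were wide for Khdc3. The test was limma on log2(normalized count + 1) over 15071 genes, with calls at a Benjamini-Hochberg adjusted p under 0.05. It called 0 of 6 core genes, against 0.0664% of all tested genes (0.0531% higher and 0.0133% lower in Nlrp2-null pools). At an unadjusted p under 0.05 it took 1 of 6 core genes, Tle6, against 10.2% of all tested genes. On the recovered reads edgeR also called 0 of 6, against 0.0464% of all genes, and DESeq2 called 0 of 6, against 1.25%. The 2 groups overlapped in all 6 core genes, while they did not overlap in 9.91% of all tested genes. The fold changes had both signs, with 3 positive and 3 negative, and their median of -0.02 on the log2 scale stood beside 0.0056 for all tested genes.

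**Figure D1:**
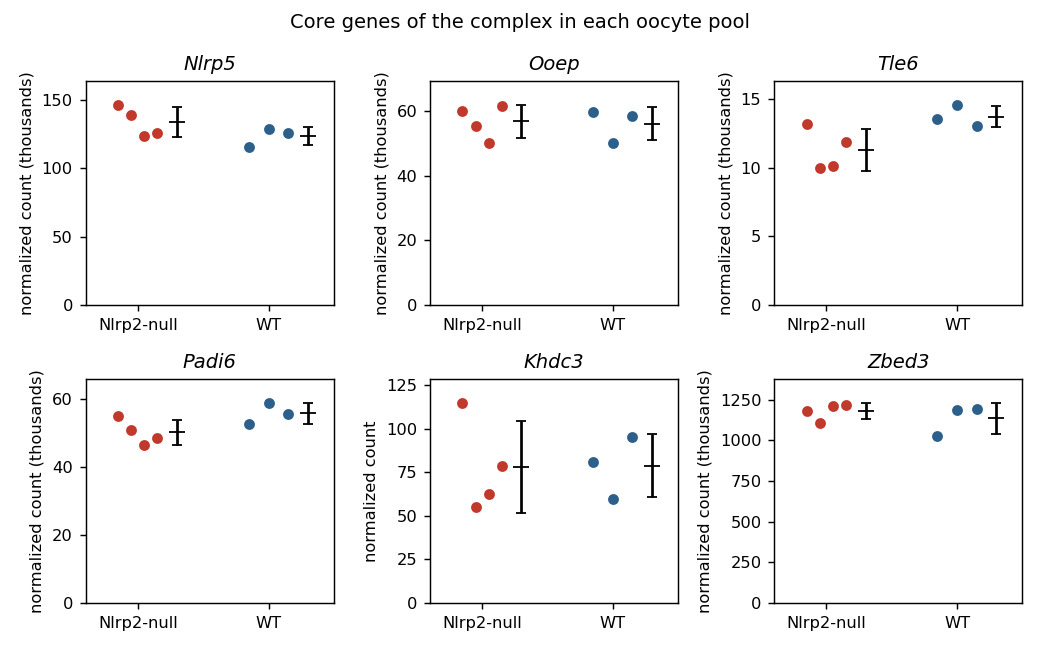
Normalized count of each core gene in each of the 4 Nlrp2-null pools (red) and 3 WT pools (blue) (each panel has its own axis); the black bar is the mean with its SD. The groups overlap in all 6 genes, and the Tle6 and Padi6 points of 3 Nlrp2-null pools lie below all WT points.

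Nlrp5, also called Mater, encodes an NLR family protein without which the complex does not form in mouse eggs. It had 146007, 138938, 123688 and 125890 normalized counts in Nlrp2-null pools 1 to 4, against 115759, 128583 and 125603 in WT pools 1 to 3. Nlrp2-null pools 1 and 2 were above all WT pools, while pools 3 and 4 lay within the WT range. The mean was 133630 ± 10647 in Nlrp2-null and 123315 ± 6711 in WT pools (SD, n = 4 and 3). The fold of 1.08 had a 95% interval of 0.964 to 1.21 (limma adjusted p = 0.663). The library numbers of the labels fall into a lower range (Nlrp2-null 1 and 2, WT 1 and 2) and a higher range (Nlrp2-null 3 and 4, WT 3), and the log2 difference was 0.22 within the lower and -0.0094 within the higher range. A separate row for the pseudogene Nlrp5-ps stayed between 17.7 and 181 normalized counts, at most 0.156% of the lowest Nlrp5 value.

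Ooep, also called Floped or Moep19, encodes a small protein with an RNA-binding-like KH domain that binds NLRP5 and TLE6. It had 59839, 55377, 50123 and 61362 normalized counts in Nlrp2-null pools, against 59533, 50101 and 58303 in WT pools. Each group spanned nearly the same interval. The fold was 1.01 with a 95% interval of 0.888 to 1.15 (limma adjusted p = 0.966), and its sign turned with equal medians as the scaling (log2 -0.0416) and with pools scaled to Nlrp5 (-0.0963). Scaling to Nlrp5 moved the median of all genes to -0.11, and relative to that median Ooep was at 0.0120.

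Tle6 encodes a member of the Groucho family of corepressors that serves in the complex and, in mouse zygotes, in the control of cytoplasmic actin. Its message had the lowest fold of the core genes. It had 13149, 9965, 10108 and 11840 normalized counts in Nlrp2-null pools, against 13576, 14561 and 13022 in WT pools. Nlrp2-null pools 2, 3 and 4 were below all WT pools, and pool 1 lay between WT 3 and WT 1. The mean was 11266 ± 1518 in Nlrp2-null and 13720 ± 780 in WT pools (SD, n = 4 and 3), and the coefficient of variation was 13.5% in Nlrp2-null and 5.68% in WT pools. The fold of 0.817 had a 95% interval of 0.697 to 0.956, from limma with an unadjusted p of 0.0152 and an adjusted p of 0.377. Among all tested genes, 4.93% were lower in Nlrp2-null pools at an unadjusted p under 0.05. The adjusted p was 0.406 in edgeR and 0.220 in DESeq2. The log2 difference was -0.30 within the lower and -0.25 within the higher range of library numbers. The neighbouring gene Tle2, another Groucho family member, shares no exon with it in the annotation.

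Padi6 encodes an oocyte member of the peptidylarginine deiminase family and is needed for the lattices. It had 54984, 50805, 46528 and 48618 normalized counts in Nlrp2-null pools, against 52786, 58948 and 55703 in WT pools. As for Tle6, pools 2, 3 and 4 were below all WT pools, and Nlrp2-null 1 lay between WT 1 and WT 3. The fold of 0.899 had a 95% interval of 0.799 to 1.01 (limma adjusted p = 0.546). The log2 difference was -0.08 within the lower and -0.23 within the higher range of library numbers.

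Zbed3 encodes a zinc finger protein that binds axin and is reported as a member of the complex in mouse oocytes. It had 1180450, 1106076, 1208713 and 1214463 normalized counts in Nlrp2-null pools, against 1024643, 1186004 and 1194097 in WT pools. WT 1 had the lowest value of the 7 pools, the groups overlapped, and the coefficient of variation was 4.23% in Nlrp2-null and 8.42% in WT pools. The fold was 1.04 with a 95% interval of 0.932 to 1.16 (limma adjusted p = 0.844), and its sign turned under the same scalings (-0.0036 and -0.0583). Zbed3 ranked 1 of 18951 symbols in each of the 7 pools and took 1.41% to 1.62% of all normalized counts in Nlrp2-null pools and 1.37% to 1.51% in WT pools. The small nucleolar RNA gene Snora47 lies within it but shares no exon with it.

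Khdc3, also called Filia, encodes a second KH domain protein of the complex, which is needed for correct chromosome segregation in early mouse embryos. Its row was low. It had 115, 55.3, 62.8 and 78.5 normalized counts in Nlrp2-null pools, against 81.1, 59.9 and 95.5 in WT pools. These values rest on 106, 54, 64 and 75 reads in Nlrp2-null pools and on 77, 63 and 116 reads in WT pools. The exact 95% Poisson interval of the smallest, 54 reads in Nlrp2-null 2, was 40.6 to 70.5 reads, and such intervals cover counting error only. The fold of 0.967 had a 95% interval of 0.418 to 2.23 (limma adjusted p = 0.986), the widest of the 6. The intervals of Nlrp2-null 1 (86.8 to 128 reads) and Nlrp2-null 2 did not overlap, and the within-group SD of Khdc3 was 0.41 on the log2 scale, against 0.09 to 0.16 for the other core genes. GENCODE M21 holds a read-through gene on the same strand, Gm20509, from 73102470 to 73117920 on chromosome 9. It shares between 40.4% and 64.3% of the bases of the 4 annotated Khdc3 transcripts. The sources used here do not give how reads shared by both genes were counted, and its part in the low Khdc3 value was not tested. Rsl24d1, the next gene along that strand, had 1795 to 2075 normalized counts in Nlrp2-null pools and 1878 to 2237 in WT pools. The Khdc3 level is therefore uncertain.

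Levels were compared between the core genes per kb of exon, from the union of annotated exons. Zbed3 was highest, at 527757 ± 22337 in Nlrp2-null and 508702 ± 42843 normalized counts per kb in WT pools. Nlrp5 followed at 27570 ± 2197 in Nlrp2-null and 25442 ± 1385 per kb in WT pools, and Ooep stood at 26508 ± 2363 in Nlrp2-null and 26183 ± 2398 per kb in WT pools. These neighbours did not differ beyond their spread, and in WT pools their order was turned. Padi6 stood at 19840 ± 1428 in Nlrp2-null and 22043 ± 1218 per kb in WT pools. In each group every Padi6 value was below every Nlrp5 and Ooep value of that group. Tle6 stood apart at 3648 ± 491 in Nlrp2-null and 4443 ± 252 per kb in WT pools, and Khdc3 at 38.0 ± 12.9 in Nlrp2-null and 38.5 ± 8.74 per kb in WT pools. With the longest annotated transcript as length, an alternative chosen after seeing the data, Nlrp5 lay above Ooep in every pool, at 38093 ± 3035 in Nlrp2-null and 35152 ± 1913 per kb in WT pools. The order of the group means was otherwise the same. By that length the Padi6 and Ooep values overlapped. Padi6 ran from 19943 to 23568 in Nlrp2-null and from 22626 to 25267 per kb in WT pools. Ooep ran from 23444 to 28701 in Nlrp2-null and from 23434 to 27845 per kb in WT pools. Among 18179 genes with a length, Nlrp5, Ooep and Padi6 ranked between 62 and 112 in each pool, and Tle6 between 687 and 1027.

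**Figure D2:**
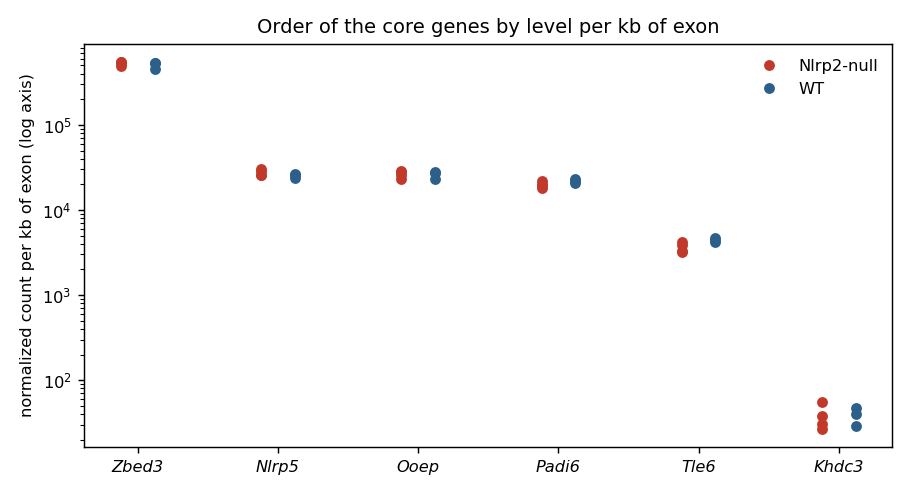
Normalized count per kb of exon (log axis) of each core gene in the 4 Nlrp2-null pools (red, left) and 3 WT pools (blue, right), ordered by the Nlrp2-null mean. Zbed3 lies near 527757 in Nlrp2-null pools, Nlrp5, Ooep and Padi6 lie close together, and Khdc3 lies at the bottom.

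Summed over the 6 core genes, the level was 605361 ± 21583 in Nlrp2-null and 586851 ± 43864 normalized counts per kb in WT pools, a ratio of 1.03. Zbed3 made up 86.3% to 88.5% of that sum in Nlrp2-null pools and 85.6% to 87.2% in WT pools. Without Zbed3 the sum was 77604 ± 5517 in Nlrp2-null and 78149 ± 1226 per kb in WT pools, a ratio of 0.993. The share of Tle6 in the sum was 0.535% to 0.694% in Nlrp2-null pools and 0.686% to 0.820% in WT pools.

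Ratios between core genes do not depend on the size factors, and 10 ratios among Nlrp5, Ooep, Tle6, Padi6 and Zbed3 were computed per kb of exon. The ratio of Nlrp5 to Padi6 varied least within groups. It was 1.39, 1.43, 1.39 and 1.35 in Nlrp2-null pools, against 1.15, 1.14 and 1.18 in WT pools, with means of 1.39 ± 0.0311 in Nlrp2-null and 1.15 ± 0.0207 in WT pools. Every Nlrp2-null pool was above every WT pool. Within groups Padi6 followed Nlrp5 closely: the SD of their log2 ratio was 0.0298, and 4 of 13870 genes with a value in every pool had a smaller SD in their ratio to Nlrp5, where the median was 0.320. This pair was picked out after its values were seen.

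The ratio of Nlrp5 to Tle6 was 7.07, 8.88, 7.80 and 6.77 in Nlrp2-null pools, against 5.43, 5.63 and 6.15 in WT pools, again with no overlap. The ratio of Ooep to Tle6 was 6.57, 8.03, 7.16 and 7.49 in Nlrp2-null pools, against 6.33, 4.97 and 6.47 in WT pools, and the lowest Nlrp2-null value lay just above the highest WT value. The ratio of Padi6 to Zbed3 was 0.0339 to 0.0410 in Nlrp2-null pools and 0.0411 to 0.0454 in WT pools. The other 6 ratios overlapped between groups, among them that of Nlrp5 to Ooep, at 0.905 to 1.11 in Nlrp2-null and 0.858 to 1.13 in WT pools. Of all tested genes 13.6% did not overlap between groups in their ratio to Nlrp5, and Padi6 and Tle6 were among these 2043 genes. The share was 7.57% for ratios to Ooep and 9.73% for ratios to Zbed3.

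With every pool scaled to equal Nlrp5, a fit chosen after seeing the data, the median log2 fold change of all genes was -0.11, against 0.0056 with the authors' size factors. Padi6 then had a log2 fold change of -0.27 (SE 0.0779), which is -0.16 relative to that median, and a limma adjusted p of 0.166. Tle6 had -0.41 (SE 0.110), or -0.30 relative to the median, with a limma adjusted p of 0.145. Neither passed over all genes. That fit called 25 of 15070 genes, 5 higher and 20 lower, where the authors' size factors gave 8 higher and 2 lower.

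**Figure D3:**
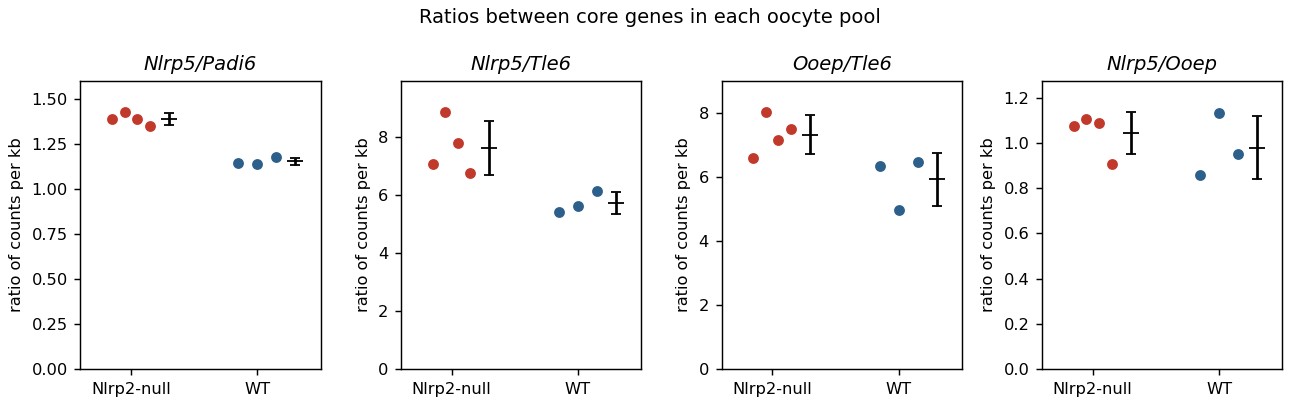
Ratios of normalized counts per kb between pairs of core genes in each of the 4 Nlrp2-null pools (red) and 3 WT pools (blue), with mean and SD in black. The ratio of Nlrp5 to Padi6 lies at 1.35 or more in Nlrp2-null pools and at 1.18 or less in WT pools, while that of Nlrp5 to Ooep overlaps between groups.

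Genes reported to associate with the complex in mouse oocytes did not pass the test, Nlrp2 apart. Of 8 tested partners 1 passed, against 0.0664% of all tested genes, and that 1 was Nlrp2 itself, whose loss the genotype sets. With Nlrp2 included, 6 of the 8 had negative fold changes, with a median of -0.12. Among all tested genes 7423 of 15071 were negative. Nlrp9a, an NLR gene of the oocyte, had 58839, 56843, 54825 and 54978 normalized counts in Nlrp2-null pools, against 60405, 60503 and 66057 in WT pools. Its groups did not overlap, and it did not pass (fold 0.905, limma adjusted p = 0.532). The other NLR partners were Nlrp9b at a fold of 0.936, Nlrp9c at 0.905, Nlrp14 at 0.908 and Nlrp4f at 1.05. Of these Nlrp14 had the largest SD in both groups, at 82649 ± 17403 in Nlrp2-null and 89981 ± 10953 in WT pools. Uhrf1, which recognizes hemimethylated DNA and is held in the egg's cytoplasm, had a fold of 1.05, and Ube2d3, a ubiquitin-conjugating enzyme, one of 0.993.

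**Figure D4:**
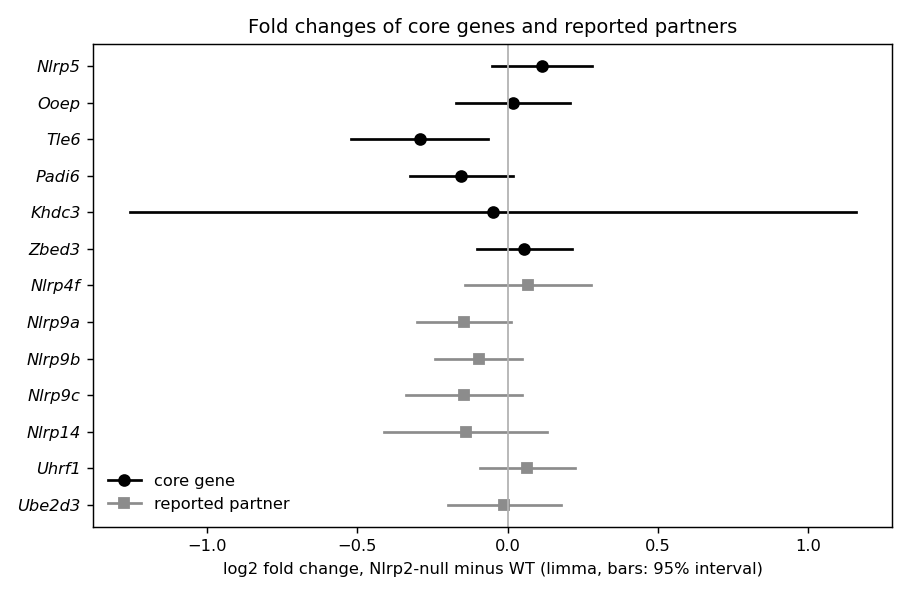
Log2 fold change, Nlrp2-null minus WT, of the 6 core genes (black circles) and 7 reported partners (grey squares), with 95% intervals from limma. The intervals are not adjusted for the number of genes. The Tle6 interval lies below 0, those of the other genes include 0, and Khdc3 has the widest.

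Family relatives of the core genes were tested for 15 of 17 listed symbols, and none passed in limma, with 1 at an unadjusted p under 0.05, against 10.2% of all tested genes. The KH domain relatives Khdc1b and Khdc1a were abundant and overlapped between groups, at 187884 ± 20471 in Nlrp2-null and 210758 ± 37305 normalized counts in WT pools for Khdc1b and at 43510 ± 5275 in Nlrp2-null and 47366 ± 5052 in WT pools for Khdc1a. Khdc1c, at 2407 ± 341 in Nlrp2-null and 2720 ± 17.5 in WT pools, did not overlap, as 9.91% of all tested genes. It did not pass (fold 0.878, limma adjusted p = 0.692). Zbed6, a relative of Zbed3, had 489, 569, 1093 and 1233 normalized counts in Nlrp2-null pools, against 567, 331 and 409 in WT pools (limma adjusted p = 0.379). Its exons lie wholly within those of Gm38394 on the same strand, so its level is uncertain. Tle2 had 45.5, 92.2, 285 and 317 normalized counts in Nlrp2-null pools, against 156, 21.9 and 21.4 in WT pools (limma adjusted p = 0.494). Both Zbed6 and Tle2 were highest in Nlrp2-null pools 3 and 4, where the mean log2 level of the cumulus markers was 9.70 and 10.2, against 8.84 and 9.06 in Nlrp2-null pools 1 and 2 and 9.57, 8.42 and 8.70 in the WT pools. The part of that in the 2 genes was not tested. The other deiminase genes were low next to Padi6, with Padi2 at 257 ± 144 in Nlrp2-null and 125 ± 42.0 in WT pools (limma adjusted p = 0.506). Padi2 did not overlap between groups and was highest in Nlrp2-null 3.

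Genes tied to single members were 17, all tested, and none passed in limma, with 2 of 17 at an unadjusted p under 0.05, a share near the 10.2% of all tested genes. Both of these encode 14-3-3 proteins, which bind phosphorylated partners. Ywhag had 41246, 35290, 41799 and 40208 normalized counts in Nlrp2-null pools, against 47397, 52774 and 45269 in WT pools, a fold of 0.817 (limma adjusted p = 0.253). Ywhaq had 9591, 9206, 9424 and 9270 normalized counts in Nlrp2-null pools, against 11858, 11072 and 11223 in WT pools, a fold of 0.824 (limma adjusted p = 0.292). In both genes the groups did not overlap, as in 9.91% of all tested genes. An antisense gene, Gm4419, shares 8.10% of the exon bases of Ywhaq, and without knowledge of strand their reads cannot be told apart. The more abundant Ywhaz and Ywhae had folds of 1.01 and 1.03. Cfl1, which encodes the actin-severing protein cofilin, had a fold of 1.02, and the axin genes Axin1 and Axin2, whose product binds ZBED3, had folds of 1.02 and 1.05.

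The genes whose pattern over the 7 pools lay nearest to that of the summed core level were sought among 6353 genes that averaged 1000 normalized counts or more. Zbed3 made up 86.3% to 88.5% of that level in Nlrp2-null and 85.6% to 87.2% in WT pools. The search therefore mainly follows Zbed3, and some gene is always nearest. Nearness was the mean absolute difference of log2 values, each centred on its own mean. Map4, a microtubule-associated protein gene, was nearest at 0.0201, followed by the phosphoinositide kinase gene Pik3cd at 0.0287 and the phospholipid flippase gene Atp11a at 0.0303. Nearest to Tle6 were Rgs3 at 0.0359, Zfp322a at 0.0497 and the oocyte F-box gene Fbxw19 at 0.04998. Fbxw19 had 19131, 14967, 14854 and 14982 normalized counts in Nlrp2-null pools, against 19462, 20933 and 18880 in WT pools (limma adjusted p = 0.301). As for Tle6, Nlrp2-null 1 lay among the WT pools and the other 3 below them, a likeness that follows from its choice by pattern.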

How the data were processed

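RNA from 4 Nlrp2-null and 3 WT oocyte pools was amplified with a NuGEN kit using oligo d(T) and random primers, per the labels' protocols, so reads are not independent molecules. The deposited signal is counts divided by a DESeq2 size factor per pool, as the name of the file deposited by the authors states. Dividing by the smallest step returned whole reads for 100% of values within a tolerance of 0.01. The submitters' processing notes name TopHat2 2.0.9, STAR 2.5.0a, HTSeq, featureCounts 1.5.0-p1, DESeq, DESeq2 1.22.2 and HOMER, with GRCm38 and mm10; the sources used here do not give their roles, the annotation or the use of strand. A second table, of assembled transcripts, names no core gene and was not used.

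The main test was limma 3.58.1 with a variance trend in R 4.3.3 (prior 10.9 and residual 5 degrees of freedom) on log2(normalized count + 1), a scale that understates the change of low genes, over 15071 genes with a mean of at least 10. edgeR 4.0.16 and DESeq2 1.42.0 ran on the recovered reads. All 3 were tested on simulated data. No 2 pools of a group agreed within sampling noise (lowest chi-square per degree of freedom 36.6), and p-values measure the spread between these pools. Named genes were the core genes, Nlrp2, from each list the 2 tested genes of smallest unadjusted p, and the 3 nearest patterns of the summed level and of Tle6; other list genes named were chosen after their values were seen. Fold and ratio values were computed here from the deposited signal. Alternatives changed pseudocount, filter, scaling, variance trend, covariates, replicate block, pools and tool. The members and lists were chosen with earlier results of these data known.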

Additional observations from a re-analysis of the deposited data

Results flagged for a closer look

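Among 33 values examined over the 4 Nlrp2-null pools, 4 had a single pool far from the other 3 by Dixon's criterion at 95%, which chance meets in about 1 group in 20. The values are not independent, since the flagged ratios all hold Ooep and Fbxw19 was chosen by its pattern. The number flagged therefore cannot be read against that share. Fbxw19 stood at 19131 normalized counts in Nlrp2-null 1, above the other Nlrp2-null pools. The ratio of Nlrp5 to Ooep per kb was 0.905 in Nlrp2-null 4, and the ratio of Ooep to Padi6 was 1.49 in the same pool, which had the highest Ooep count of the group. The ratio of Ooep to Zbed3 was 0.0433 in Nlrp2-null 3, the pool with the lowest Ooep count of the group.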

How the results depend on the processing

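No core gene was called in any alternative fit that tested it; Khdc3 was not tested at a mean of at least 100, nor Nlrp5 when pools were scaled to it. Tle6 kept a log2 fold change between -0.41 and -0.24 with adjusted p values from 0.145 (scaled to Nlrp5) to 0.803 (without WT 2), Padi6 one between -0.27 and -0.08, and Nlrp5 one between 0.05 and 0.21. At an unadjusted limma p under 0.05, 0 core genes passed without a variance trend. The same held with WT 2, Nlrp2-null 2 or Nlrp2-null 3 left out in turn. The direction of Ooep turned with equal medians (-0.0416), the cumulus marker mean as a covariate (-0.0217), replicates 1 to 3 only (-0.0221) and scaling to Nlrp5 (-0.0963), and it ran from -0.0603 to 0.0752 when each pool was left out in turn. Zbed3 turned with equal medians (-0.0036) and scaling to Nlrp5 (-0.0583) and ran from -0.0164 to 0.0940 over left-out pools. Khdc3 ran from -0.25 to 0.10 over left-out pools and was at 0.0425 without Nlrp2-null 3 and 4. The log2 difference of the summed level ran from -0.02 to 0.08 over left-out pools and moved by less than the replicate spread under every alternative run. That spread (SD 0.0807) was larger than the main value of 0.0469, so a turned sign could pass as no move. The sign turned with equal medians (-0.0123), without WT 1 (-0.0167) and without Zbed3 (-0.0127).

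The 10 calls over all genes became 6 with equal medians, 0 without a variance trend (1252 at an unadjusted p under 0.05), 20 with the cumulus marker mean, 25 scaled to Nlrp5, 7 in edgeR, 188 in DESeq2, and 0 without Nlrp2-null 3 and 4 (1080 at an unadjusted p under 0.05). Leaving out a pool gave 2 (without Nlrp2-null 3) to 16 (without Nlrp2-null 1), with 4 without WT 2, 5 without WT 3 and 4 without Nlrp2-null 4. Nlrp2 lost its call without a variance trend (adjusted p = 0.316, log2 fold change -9.70) and without Nlrp2-null 3 and 4 (0.133, -9.11), against -9.70 with all pools. The cause was not tested.

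Replicate numbers did not pair the pools: deviations of same-numbered pools correlated across genes at -0.16, 0.02 and -0.01. With the replicate block on replicates 1 to 3 there was 1 call, against 4 in the same pools without it, which is the fit without Nlrp2-null 4, and Ooep was at -0.0221 in both. No pool correlated best with the pool of its own number. Fits without Nlrp2-null 3 and 4 and scaled to Nlrp5 were chosen after seeing the data. Khdc3 had 54 to 116 reads per pool, and the parts of depth and of spread between pools in its interval were not tested.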

Other observations

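Other maternal effect genes, which like the core genes are stored for the embryo, were 20, all tested. None passed in limma, and 2 higher and 1 lower gene had an unadjusted p under 0.05, against 10.2% of all tested genes. Mllt11 had 1337, 1424, 1295 and 1494 normalized counts in Nlrp2-null pools, against 1897, 1931 and 1904 in WT pools (fold 0.725, limma adjusted p = 0.301). Kdm1b, the histone demethylase gene named in the title of the series, had a fold of 1.39 (limma adjusted p = 0.1004), and 9.19% of its exon bases overlap Dek on the opposite strand. Zar1, whose protein binds stored messenger RNA in mouse oocytes, had a fold of 0.925, and Npm2, a nucleoplasmin gene of the egg, one of 0.928.

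Of 7 oocyte transcription factors 6 were tested, and 5 of them had negative fold changes, with a median of -0.24, against 0.0056 over all tested genes, of which 7423 of 15071 were negative. None passed in limma, and 2 of 6 had an unadjusted p under 0.05, against 10.2% of all tested genes. Both were lower, as were 4.93% of all tested genes at that p. Nobox, a homeobox gene of the growing oocyte, had 28918, 28002, 29567 and 30775 normalized counts in Nlrp2-null pools, against 40097, 33784 and 30545 in WT pools (fold 0.847, limma adjusted p = 0.397), and its groups overlapped. Lhx8, a LIM homeobox gene of the oocyte, had 10826, 10915, 9473 and 10137 in Nlrp2-null pools, against 12259, 13054 and 11280 in WT pools (fold 0.848, limma adjusted p = 0.411), with no overlap between groups. Figla was low in every pool, at 20.6 to 66.6 normalized counts in Nlrp2-null and 21.9 to 79.0 in WT pools.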
